A study of Mus musculus with 28 samples.

Results

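The 10 genes described here were the rows named Gpam, Gpd1, Agpat2, Agpat3, Lpin1, Lpin2, Lpin3, Mogat1, Dgat1 and Dgat2 in the deposited count tables, out of 23393 symbols present in both tables. They encode enzymes of triglyceride synthesis, including the 3 lipins. All 10 were found and all 10 were among the 12607 genes tested. They were measured by RNA sequencing in livers of 28 mice, all 11 to 13 months old and of the 129svj strain, 7 in each of 4 groups. HZ WY livers came from mice heterozygous for Sirt6, a nuclear NAD-dependent deacylase, that received 50 mg/kg WY-14643 by mouth in 0.5% carboxymethylcellulose. WT WY livers came from wild-type mice given the same dose. HZ vehicle and WT vehicle livers came from heterozygous and wild-type mice given 0.5% carboxymethylcellulose alone. All livers were taken 12 h after the dose. WY-14643 (WY) is a compound that activates PPARα, a receptor that drives fatty acid oxidation genes in liver. Each library is 1 animal. The labels give the genotype as heterozygote, and the kind of Sirt6 allele was not analysed here.

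Liver cells make triglyceride mainly through the glycerol 3-phosphate pathway. GPD1 forms glycerol 3-phosphate from a glycolytic intermediate, GPAM on the outer mitochondrial membrane adds the first fatty acyl chain, and the AGPAT enzymes add the next one to give phosphatidic acid. The lipins remove the phosphate to give diacylglycerol, and DGAT1 and DGAT2 add the last acyl chain. MOGAT1 reaches diacylglycerol by another route, through acylation of monoacylglycerol. Lipin 1 also enters the nucleus, where it is known as a coactivator that works with PGC-1α and PPARα, and its transcript is known to be raised in liver by fasting and glucocorticoids. Diacylglycerol and phosphatidic acid are shared with phospholipid synthesis, so transcript levels of these enzymes do not measure triglyceride itself.

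In the series as a whole the counts differed with the genotype and agonist labels at the level of groups. Libraries held 15795201 to 20020078 counts assigned to genes. Sirt6 averaged 1.61 ± 0.36 CPM (counts relative to the TMM-scaled size of the library) in HZ WY and 3.31 ± 0.68 CPM in WT WY livers, and 1.21 ± 0.18 CPM in HZ vehicle and 2.38 ± 0.62 CPM in WT vehicle livers (SD, n = 7 each). It was sparse, at 15 to 79 reads per library. The genotypes were separate in Sirt6 under vehicle but overlapped with WY, at 2.29 CPM in the highest HZ and 2.27 CPM in the lowest WT liver. Of 12 textbook PPARα targets, 12 were higher with WY in HZ livers and 11 in WT livers. The shares of all tested genes that were higher were 29.3% in HZ and 27.4% in WT livers. A set of 5 HZ libraries, from WY animals 14, 15 and 21 and vehicle animals 30 and 38, lay at the far end of the second principal component of all tested genes, and calls of named genes that were lost without these 5 are given with that value beside them. Vehicle animals carried numbers 29 to 39 and 71 to 78, and WY animals 2 to 25, so treatment and number series cannot be told apart. The 71 to 78 series was uneven between genotypes, with HZ animal 71 and WT animals 74, 76 and 78. Reads in no annotated feature made up 6.55 to 7.82% of a library in HZ WY and 6.35 to 7.31% in WT WY livers, against 7.85 to 9.08% in HZ vehicle and 8.33 to 8.66% in WT vehicle livers. This share did not overlap between WY and vehicle libraries of either genotype, and its part in the WY results was not tested. Hepatocyte markers were present in every library. The adipocyte markers Adipoq, Plin1, Lep, Retn and Cfd reached at most 0.364 CPM in any liver, while Cidec and Car3 of the same list, which hepatocytes also express, were well above that. In whole-liver RNA, fewer cells of a type and less RNA per cell cannot be told apart.

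The start regions of Lpin1 and Mogat1 are shown because these genes had the largest changes with WY among the 10. Sequences are RefSeq windows on GRCm38.p6 from 250 bases before to 50 bases after the annotated start, in the direction of the gene. In the Lpin1 window (chr12:16610917-16611216, minus strand) capitals mark the hexamer AGGTCA, the half-site of many nuclear receptors. The Mogat1 window (chr1:78510810-78511109, plus strand) held none of the motifs searched.
Lpin1: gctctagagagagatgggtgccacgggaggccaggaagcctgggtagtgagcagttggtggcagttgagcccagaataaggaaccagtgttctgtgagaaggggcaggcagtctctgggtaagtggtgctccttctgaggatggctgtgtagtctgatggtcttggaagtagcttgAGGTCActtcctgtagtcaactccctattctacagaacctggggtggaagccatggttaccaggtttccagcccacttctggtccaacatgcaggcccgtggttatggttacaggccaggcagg
Mogat1: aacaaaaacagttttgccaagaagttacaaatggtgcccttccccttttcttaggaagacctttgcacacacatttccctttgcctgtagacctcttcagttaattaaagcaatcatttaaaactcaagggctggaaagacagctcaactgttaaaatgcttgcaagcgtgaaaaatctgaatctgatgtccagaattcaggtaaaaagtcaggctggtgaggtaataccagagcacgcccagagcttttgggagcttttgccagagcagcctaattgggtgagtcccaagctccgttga
Windows were given for 7 of the 10 genes (Gpam, Agpat2, Agpat3, Lpin1, Lpin2, Lpin3 and Mogat1), 11 windows in all. The hexamer lay at bases -74 to -69 of the Lpin1 window and at -196 to -191 of 1 of the 2 Gpam windows, and on either strand it occurred in 16.3% of all 32817 windows of this length. The direct repeat AGGNCANAGGNCA, a spaced pair of such half-sites like those bound by PPARα with its partner RXR, was in 0.381% of all windows and in none of the 11. The E-box CACGTG, a clock and sterol factor motif, was in 7.15% of all windows and in 1 window each of Lpin2 (-9 to -4) and Lpin3 (23 to 28). The D-box TTATGTAA (0.935% of windows), the cyclic AMP element TGACGTCA (1.79%), the sterol element TCACNCCAC (1.24%) and TATAAA (13.6%) were absent from these windows. The shorter TGACG (20.8% of windows) occurred in the second Gpam window and in the first Lpin2 window, where it overlapped the E-box. These matches describe letters in a window only.

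Levels of the 10 genes spanned a wide range. Compared per kilobase of the principal transcript, in CPM per kb, Gpd1 was the most abundant of the 10 with WY, at 271 ± 23.1 in HZ WY and 276 ± 38.9 in WT WY livers. Agpat2 followed at 198 ± 34.3 in HZ WY and 210 ± 50.2 in WT WY livers, and it was below Gpd1 in 7 of 7 livers of either WY group. Under vehicle Dgat2 led, at 246 ± 35.8 CPM per kb in HZ vehicle and 232 ± 46.1 in WT vehicle livers. Gpd1 came next under vehicle and was below Dgat2 in 7 of 7 HZ and 6 of 7 WT livers. Lpin3 was the least abundant in every group, at 1.45 to 1.78 CPM per kb on average. Neighbours in this order often changed places between animals: in HZ vehicle livers Gpd1 was above Lpin1 in 3 of 7 and Lpin1 above Lpin2 in 4 of 7. In WT vehicle livers Agpat2 was above Lpin2 in 3 of 7 and Gpam above Agpat3 in 3 of 7.

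**Figure D1:**
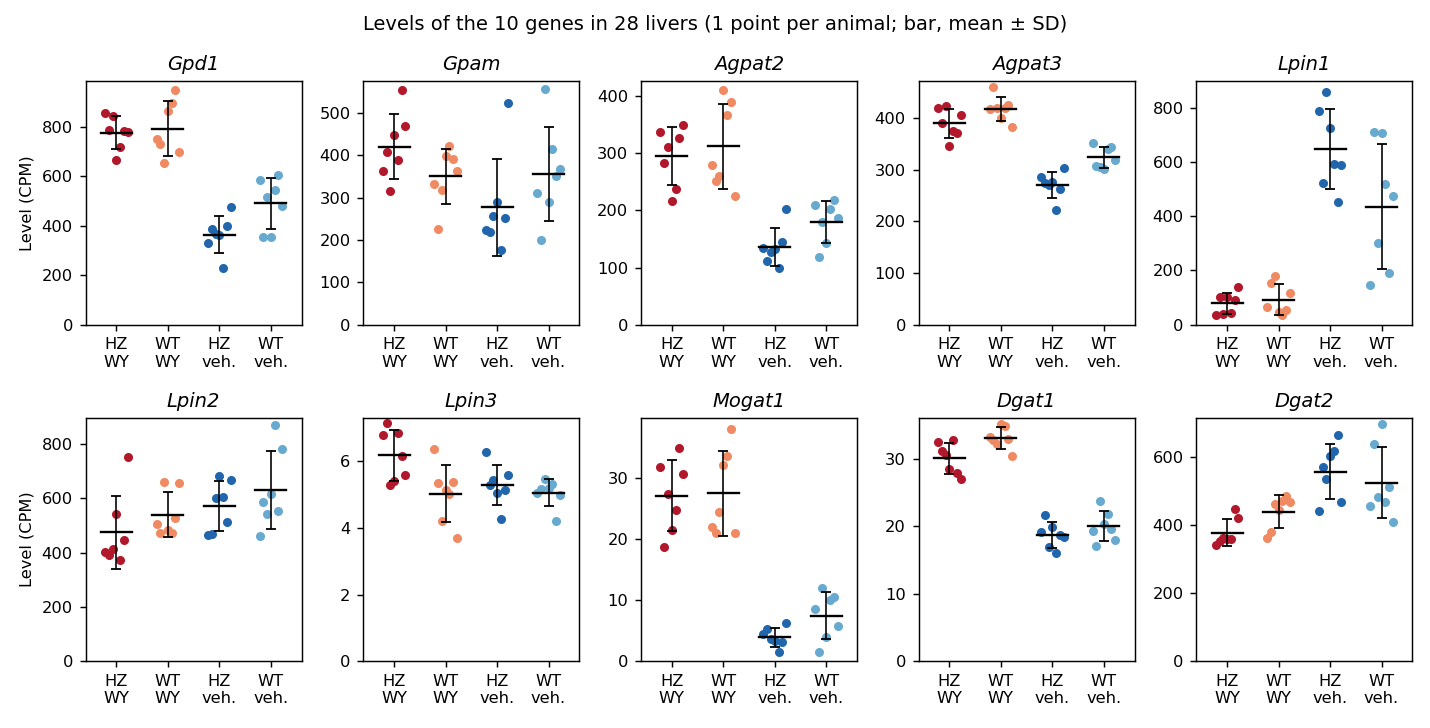
Each point is the level of a gene in 1 liver in CPM (vertical axis, linear, from 0), for HZ WY, WT WY, HZ vehicle and WT vehicle livers from left to right, with bars at the mean ± SD of 7 animals. The WY points of Gpd1, Agpat2, Agpat3, Mogat1 and Dgat1 all lie above the vehicle points of the same genotype, and in HZ livers every WY point of Lpin1 lies below the vehicle points.

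The comparison of WY with vehicle asked how the agonist changed these transcripts in each genotype. In both genotypes WY livers had more Mogat1, Gpd1, Agpat2, Agpat3 and Dgat1 and less Lpin1 and Dgat2, while Lpin2 and Lpin3 did not pass the test in either. Gpam passed in HZ and not in WT livers, and the test of the difference between those effects did not pass. In HZ livers 6 of the 10 genes were higher and 2 lower at an adjusted p below 0.05 (edgeR quasi-likelihood test, Benjamini-Hochberg over all genes tested), against 29.3% and 26.4% of all 12607 tested genes. In WT livers 5 were higher and 2 lower, against 27.4% and 26.7% of all tested genes. The median log2 fold change of the 10 was 0.56 in HZ and 0.18 in WT livers, beside 0.01 and -0.02 over all tested genes. WY and vehicle groups did not overlap for 6 of the 10 genes in HZ and 5 in WT livers, beside 22.5% and 27.7% of all tested genes.

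**Figure D2:**
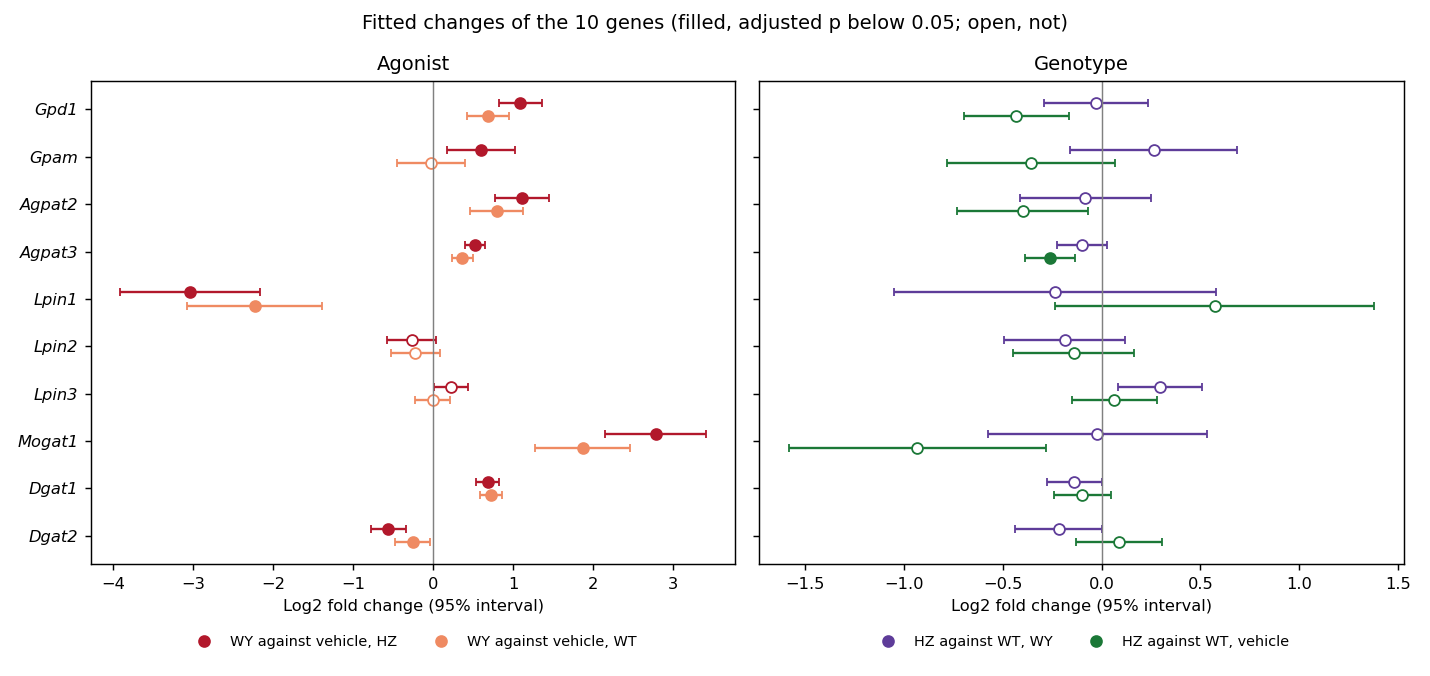
Points are fitted log2 fold changes of the 10 genes (horizontal axis) with 95% intervals, for WY against vehicle in HZ and WT livers on the left and for HZ against WT livers under WY and vehicle on the right; filled points passed an adjusted p of 0.05. Mogat1 and Lpin1 lie furthest from 0 on the left, and on the right only Agpat3 under vehicle is filled.

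Gpd1, the cytosolic glycerol 3-phosphate dehydrogenase, lies on chromosome 15 (GRCm38, 99717515 to 99725005, plus strand). It ranged from 665 to 854 CPM (median 781) in HZ WY livers, against 228 to 473 CPM (median 368) in HZ vehicle livers. The corresponding ranges were 653 to 948 CPM (median 748) in WT WY and 353 to 604 CPM (median 514) in WT vehicle livers. Every WY liver was above every vehicle liver of its genotype. The log2 fold change was 1.09 ± 0.13 in HZ livers (SE, adjusted p = 4.5e-08, 2.13-fold) and 0.69 ± 0.13 in WT livers (adjusted p = 4.5e-05, 1.61-fold). A predicted gene on the other strand, Gm16537, shares 384 exonic bases with Gpd1, and the strand setting of the counting is not known here, so reads of the pair cannot be told apart there.

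Gpam, the mitochondrial glycerol 3-phosphate acyltransferase (chromosome 19, 55067268 to 55127238, minus strand), overlapped between treatments in both genotypes. It ranged from 316 to 554 CPM (median 408) in HZ WY livers, against 177 to 525 CPM (median 253) in HZ vehicle livers. It ranged from 227 to 422 CPM (median 363) in WT WY livers, against 201 to 556 CPM (median 351) in WT vehicle livers. Animal 71, at 525 CPM, stood above the other 6 HZ vehicle livers, which reached at most 290 CPM. The log2 fold change of WY was 0.60 ± 0.21 in HZ livers (adjusted p = 0.0151) and -0.02 ± 0.20 in WT livers (adjusted p = 0.933). The call in HZ livers did not hold once the 5 HZ libraries apart were left out (0.48 ± 0.26, adjusted p = 0.129), nor with a clock score as a covariate (0.47 ± 0.27, adjusted p = 0.176).

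Agpat2 and Agpat3 encode acyltransferases of the lysophosphatidic acid step. AGPAT2 is the form whose loss causes generalized lipodystrophy in humans, and AGPAT3 also acts on other lysophospholipids. Agpat2 (chromosome 2, 26593057 to 26604417, minus strand) ranged from 217 to 350 CPM (median 312) in HZ WY livers, against 99.4 to 203 CPM (median 133) in HZ vehicle livers. WT livers held 226 to 411 CPM (median 280) with WY, against 119 to 219 CPM (median 187) with vehicle. The treatments did not overlap in either genotype, with log2 fold changes of 1.11 ± 0.16 in HZ livers (adjusted p = 1.7e-06) and 0.80 ± 0.16 in WT livers (adjusted p = 1.5e-04). Agpat3 (chromosome 10, 78269178 to 78352489, minus strand) varied less between animals. It ranged from 346 to 423 CPM (median 390) in HZ WY livers, against 223 to 304 CPM (median 275) in HZ vehicle livers. In WT livers it ranged from 382 to 460 CPM (median 419) with WY, against 301 to 351 CPM (median 319) with vehicle. Its log2 fold change was smaller than that of Agpat2 but as clearly outside the spread, at 0.53 ± 0.06 in HZ livers (adjusted p = 3.0e-08) and 0.37 ± 0.06 in WT livers (adjusted p = 1.0e-05). Opposite-strand genes share 64 exonic bases with Agpat2 (Egfl7) and 16 with Agpat3 (Gm40709).

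Lpin1, the phosphatidic acid phosphatase with a second role as a coactivator (chromosome 12, 16535669 to 16610966, minus strand), had the largest fall of the 10 genes. It ranged from 35.4 to 139 CPM (median 90.1) in HZ WY livers, against 452 to 857 CPM (median 593) in HZ vehicle livers. WT livers held 35.2 to 179 CPM (median 65.5) with WY, against 148 to 711 CPM (median 473) with vehicle. In HZ livers the treatments were separate. In WT livers the highest WY animal (11) was above the lowest vehicle animal (29), and 5 of 7 WY livers were below all vehicle livers. The log2 fold change was -3.04 ± 0.42 in HZ livers (adjusted p = 1.3e-06), a level 0.122 times that of vehicle, and -2.23 ± 0.41 in WT livers (adjusted p = 5.9e-05), 0.213 times that of vehicle. Lpin1 varied widely between livers, with a highest level 4.80 times the lowest in WT vehicle, 5.1 times in WT WY and 3.93 times in HZ WY livers. In HZ vehicle livers it was 1.90 times.

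Lpin2 (chromosome 17, 71182560 to 71249817, plus strand), a lipin known to be abundant in liver, and Lpin3 (chromosome 2, 160880670 to 160906002, plus strand) did not pass. Lpin2 ranged from 374 to 751 CPM (median 415) in HZ WY and from 463 to 683 CPM (median 602) in HZ vehicle livers. It ranged from 471 to 660 CPM (median 505) in WT WY and from 461 to 870 CPM (median 587) in WT vehicle livers. In Lpin2, 5 of 7 HZ WY livers were below all HZ vehicle livers and animal 21 was above them all. The log2 fold change was -0.27 with a 95% interval of -0.58 to 0.04 (adjusted p = 0.125). Without animal 21 it was -0.42 (adjusted p = 0.00805), and without the 5 HZ libraries apart it was -0.54 ± 0.16 (adjusted p = 0.00593). In WT livers it was -0.23, with an interval of -0.53 to 0.08 (adjusted p = 0.203). Lpin3 was sparse, at 62 to 140 reads per library. It averaged 6.18 ± 0.76 CPM in HZ WY and 5.30 ± 0.61 CPM in HZ vehicle livers, with a log2 fold change of 0.22 ± 0.10 (adjusted p = 0.0661). Without the 5 libraries this was 0.35 ± 0.12 (adjusted p = 0.0141). Its averages in WT livers were 5.03 ± 0.86 CPM with WY and 5.06 ± 0.41 CPM with vehicle (log2 fold change -0.01, interval -0.22 to 0.21).

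Mogat1, the monoacylglycerol acyltransferase (chromosome 1, 78510991 to 78538173, plus strand), had the largest rise. It ranged from 18.8 to 35.0 CPM (median 27.4) in HZ WY livers, against 1.61 to 6.33 CPM (median 3.61) in HZ vehicle livers. In WT livers it ranged from 21.0 to 38.1 CPM (median 24.5) with WY, against 1.60 to 12.1 CPM (median 8.60) with vehicle. The treatments did not overlap in either genotype. The log2 fold change was 2.78 ± 0.31 in HZ livers (adjusted p = 3.0e-08, 6.87-fold) and 1.87 ± 0.29 in WT livers (adjusted p = 5.5e-06, 3.65-fold). Vehicle libraries held as few as 29 Mogat1 reads, and 200 exonic bases overlap the opposite-strand gene BC035947.

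The acyltransferases of the last step changed in opposite directions. Dgat1, an enzyme of the endoplasmic reticulum that esterifies mainly preformed fatty acids (chromosome 15, 76502015 to 76511953, minus strand), ranged from 27.1 to 32.8 CPM (median 30.5) in HZ WY livers, against 16.1 to 21.7 CPM (median 18.7) in HZ vehicle livers. WT livers held 30.3 to 35.1 CPM (median 32.9) with WY, against 17.1 to 23.7 CPM (median 19.6) with vehicle. Its treatments were separate in both genotypes, and the log2 fold changes were 0.68 ± 0.07 in HZ (adjusted p = 2.5e-09) and 0.72 ± 0.07 in WT livers (adjusted p = 1.2e-09). Dgat2, which is unrelated in sequence and linked to newly made fatty acids (chromosome 7, 99153658 to 99182719, minus strand), ranged from 341 to 448 CPM (median 359) in HZ WY livers, against 442 to 665 CPM (median 570) in HZ vehicle livers. In WT livers it ranged from 361 to 487 CPM (median 463) with WY, against 410 to 697 CPM (median 484) with vehicle. In Dgat2, 6 of 7 HZ WY livers were below all HZ vehicle livers, and 2 of 7 WT WY livers were below all WT vehicle livers. The log2 fold change was -0.56 ± 0.11 in HZ livers (adjusted p = 5.9e-05) and -0.26 ± 0.11 in WT livers (adjusted p = 0.0438). The WT call was at the edge of the threshold: a two-sided exact permutation test on log2 CPM gave p = 0.0775, and the adjusted p was 0.152 without WT vehicle animal 37 and 0.103 without WT WY animal 6.

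Two-sided exact permutation tests of WY against vehicle gave p = 0.000583, the smallest possible with 7 against 7, for Gpd1, Agpat2, Agpat3, Mogat1 and Dgat1 in both genotypes and for Lpin1 in HZ livers. The same exact test gave p = 0.00175 for Lpin1 in WT, 0.00117 for Dgat2 in HZ and 0.0128 for Gpam in HZ livers.

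The mix of lipin transcripts differed between WY and vehicle livers. Per kilobase of principal transcript, Lpin1 made up 13.6 ± 4.6% of the summed lipin transcripts in HZ WY livers, against 52.6 ± 6.0% in HZ vehicle livers. The share was 13.8 ± 6.7% in WT WY and 38.3 ± 12.0% in WT vehicle livers. HZ livers did not overlap in this share between treatments, and in WT livers the highest WY share, 24.3%, lay at the lowest vehicle share, 24.1%. Lpin2 took up nearly all of the rest, at 84.5 ± 4.4% in HZ WY, 84.8 ± 6.5% in WT WY, 46.7 ± 6.0% in HZ vehicle and 60.9 ± 11.8% in WT vehicle livers. The summed lipins came to 99.95 ± 29.5 CPM per kb in HZ WY, 114 ± 22.2 in WT WY, 219 ± 33.6 in HZ vehicle and 191 ± 57.5 in WT vehicle livers. Dgat2 exceeded Dgat1 per kilobase 10.6 ± 1.9 times in HZ WY and 25.1 ± 4.6 times in HZ vehicle livers, and 11.1 ± 1.4 times in WT WY and 22.2 ± 5.5 times in WT vehicle livers. The ranges of this ratio did not overlap between treatments in either genotype, with at most 13.4 in WY and at least 17.0 in vehicle livers. These ratios are descriptions with no test, and lengths counted over all exons instead of the principal transcript put the Lpin1 share at 16.1% in HZ WY, 16.4% in WT WY, 57.7% in HZ vehicle and 43.1% in WT vehicle livers.

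**Figure D3:**
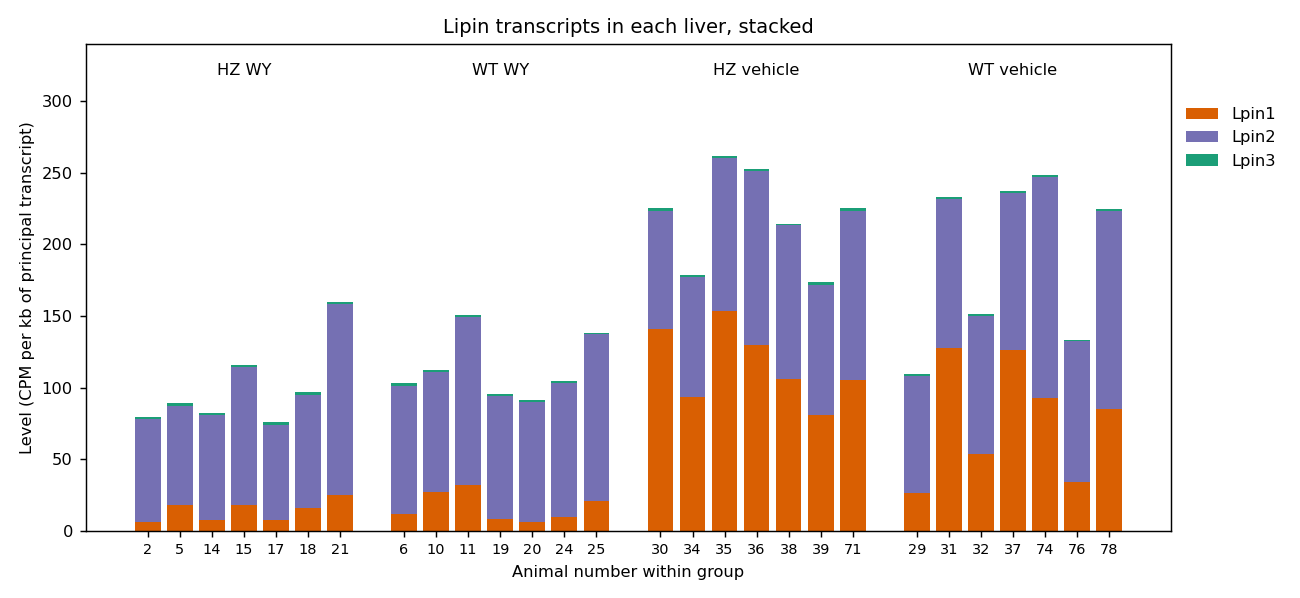
Stacked bars give the Lpin1, Lpin2 and Lpin3 levels of each liver in CPM per kb of principal transcript (vertical axis from 0), with animals in order of number within HZ WY, WT WY, HZ vehicle and WT vehicle. The Lpin1 segment is short in all 14 WY livers and varies most among WT vehicle livers, where animals 29 and 76 have the smallest.

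The comparison of HZ with WT livers under vehicle asked whether partial loss of Sirt6 alone altered these genes. Agpat3 was lower in HZ vehicle livers, and none of the 10 was higher. Against this 1 of 10, 1.77% of all tested genes were lower and 0.301% higher. Agpat3 averaged 271 ± 24.8 CPM in HZ vehicle and 324 ± 20.8 CPM in WT vehicle livers (SD, n = 7 each), a log2 fold change of -0.26 ± 0.06 (adjusted p = 0.0281). In this gene 6 of 7 HZ livers were below all WT livers, and the exact permutation test gave p = 0.00117. The size of the Agpat3 difference changed little but its call did not hold with vehicle animals 29 to 39 only (-0.25, adjusted p = 0.168), without the 5 HZ libraries apart (-0.22, adjusted p = 0.150), or without HZ animal 38 (-0.22, adjusted p = 0.0739) or WT animal 76 (-0.24, adjusted p = 0.0826). The 12 Kupffer cell markers summed to 405 to 855 CPM in HZ vehicle livers, highest in animal 30, and to 406 to 554 CPM in WT vehicle livers. Log2 fold changes of the 12 in HZ against WT livers ran from 0.03 to 0.65 (median 0.37) under vehicle. Under WY they ran from 0.33 to 0.89 (median 0.60). None of the 12 passed in either comparison or was at 0 in a whole group, and their part in the Agpat3 difference was not tested.

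The members next in order of p also had lower averages in HZ vehicle livers, without passing. Gpd1 averaged 364 ± 74.2 CPM in HZ vehicle and 490 ± 102 CPM in WT vehicle livers, a log2 fold change of -0.43 ± 0.13 (adjusted p = 0.0697). Agpat2 averaged 136 ± 33.2 CPM in HZ vehicle and 180 ± 36.5 CPM in WT vehicle livers (-0.40 ± 0.16, adjusted p = 0.184). Mogat1 averaged 3.96 ± 1.55 CPM in HZ vehicle and 7.52 ± 3.84 CPM in WT vehicle livers (-0.93 ± 0.31, adjusted p = 0.118). The same few animals set the extremes. HZ vehicle animal 38 was lowest of its group in Gpam, Gpd1, Agpat2, Agpat3, Lpin3, Mogat1 and Dgat1, and animal 71 was highest in Gpam, Gpd1, Agpat2, Agpat3 and Mogat1. WT vehicle animal 31 was lowest in Gpam, Agpat2, Mogat1 and Dgat1 and highest in Lpin1. Without HZ animal 71, 4 members passed as lower: Gpam (-0.59, adjusted p = 0.0468), Gpd1 (-0.50, adjusted p = 0.0205), Agpat2 (-0.52, adjusted p = 0.0455) and Agpat3. Over all genes, 505 of 12665 tested were lower in that fit, against 223 of 12607 with all libraries. Animal 71 was the only HZ vehicle animal numbered 71 to 78, so without it that series held WT animals only. Genotype and number series cannot be fully told apart in that fit. Without WT animal 31, Mogat1 (-1.11, adjusted p = 0.0146) and Gpd1 (-0.50, adjusted p = 0.0189) passed beside Agpat3, and 465 of 12665 tested genes were lower. Of the 12 PPARα targets, 3 (Acaa1b, Acot1 and Plin2) were also lower in HZ vehicle livers, beside 1.77% of all tested genes. The median log2 fold change over the 12 was -0.82. Without the 5 HZ libraries apart none of those tested passed (median -0.63), with adjusted p = 0.132 for Acaa1b, 0.205 for Acot1 and 0.167 for Plin2. None of those tested passed with vehicle animals 29 to 39 only or with only the vehicle groups fitted. The count was 0 without HZ animal 38 or WT animal 74 or 76. It was 9 without HZ animal 71 or WT animal 31, beside the same 505 and 465 lower genes over all tested. The part of the PPARα target difference in these results was not tested. Lpin1 averaged 646 ± 147 CPM in HZ vehicle and 435 ± 230 CPM in WT vehicle livers, with a log2 fold change of 0.57 and an interval of -0.23 to 1.38.

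With WY no member passed between the genotypes, where 1.42% of all tested genes were higher and 1.74% lower in HZ livers. DESeq2 size factors in place of TMM gave 203 genes higher and 480 lower there, against 179 and 219. The nearest member was Lpin3, at 6.18 ± 0.76 CPM in HZ WY and 5.03 ± 0.86 CPM in WT WY livers (log2 fold change 0.30 ± 0.10, adjusted p = 0.0853). Gpd1 averaged 774 ± 66.1 CPM in HZ WY and 790 ± 111 CPM in WT WY livers (-0.03, interval -0.29 to 0.23). Mogat1 averaged 27.2 ± 5.8 CPM in HZ WY and 27.5 ± 7.0 CPM in WT WY livers (-0.02, interval -0.57 to 0.53). Lpin1, at 78.7 ± 39.6 CPM in HZ WY and 92.7 ± 56.7 CPM in WT WY livers, had an interval of -1.05 to 0.58. Dgat2 averaged 378 ± 40.2 CPM in HZ WY and 439 ± 48.8 CPM in WT WY livers (-0.22, interval -0.44 to 0.00). Dgat1 averaged 30.0 ± 2.3 CPM in HZ WY and 33.0 ± 1.6 CPM in WT WY livers (-0.14, interval -0.28 to 0.00).

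The interaction, the WY effect in HZ livers minus that in WT livers, was called for 0 of the 10 genes and for 0% of all genes in either direction by edgeR (1182 genes at an unadjusted p below 0.05, 3 genes called by DESeq2 and 1 by limma). The differences were 0.91 ± 0.41 for Mogat1 (adjusted p = 0.511), 0.62 ± 0.29 for Gpam (adjusted p = 0.516) and 0.40 ± 0.18 for Gpd1 (adjusted p = 0.508). For Lpin1 the difference was -0.81 ± 0.56 (adjusted p = 0.665) and for Dgat2 -0.30 ± 0.15 (adjusted p = 0.535). Their 95% intervals ran from 0.06 to 1.76 for Mogat1 and from -1.96 to 0.34 for Lpin1. The WY and vehicle libraries of each genotype enter both the agonist and the genotype comparisons, so these values are not independent of those above.

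A clock score moved with several of these levels. The score was the first principal component of 15 clock genes over the 28 livers, with Dbp, a clock output factor that peaks late in the day, on its positive side. It ran from -6.46 to -0.34 (median -3.21) in HZ WY, -3.74 to 3.49 (median 0.95) in WT WY, -0.83 to 2.96 (median 2.43) in HZ vehicle and -3.25 to 5.16 (median 0.48) in WT vehicle livers. Among 40 relations (10 genes in 4 groups of 7), Pearson's r passed Benjamini-Hochberg adjustment of exact permutation p for Agpat2 (-0.90) and Agpat3 (-0.90) in WT vehicle and for Dgat2 (0.90) in WT WY livers, each with adjusted p = 0.0450. Spearman's rho was -0.96, -0.89 and 0.82 for these, and none passed adjustment (0.111, 0.123 and 0.195). Leaving out the 2 animals farthest from the median score, r was -0.69 for Agpat2, -0.87 for Agpat3 and 0.58 for Dgat2. Lpin1 in WT vehicle livers had r = 0.82 (exact permutation p = 0.0272, adjusted 0.180) and rho = 0.86 (exact p = 0.0238, adjusted 0.190), and r = 0.61 without those 2 animals.

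With the clock score as a covariate the falls of Lpin1 with WY were -2.30 ± 0.48 in HZ livers (adjusted p = 6.6e-04) and -1.93 ± 0.38 in WT livers (adjusted p = 1.7e-04). Those of Dgat2 were -0.21 ± 0.11 in HZ livers (adjusted p = 0.122) and -0.17 ± 0.08 in WT livers (adjusted p = 0.0736) and no longer passed. Of the 15 clock genes, 1 was higher and 9 lower with WY in HZ livers, beside 29.3% and 26.4% of all tested genes. In WT livers 0 were higher and 4 lower, beside 27.4% and 26.7%. The score thus differed with treatment in HZ livers, and this fit cannot fully separate it from WY. The labels give no clock hour for the livers, and the part of time of day in these results was not tested.

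**Figure D4:**
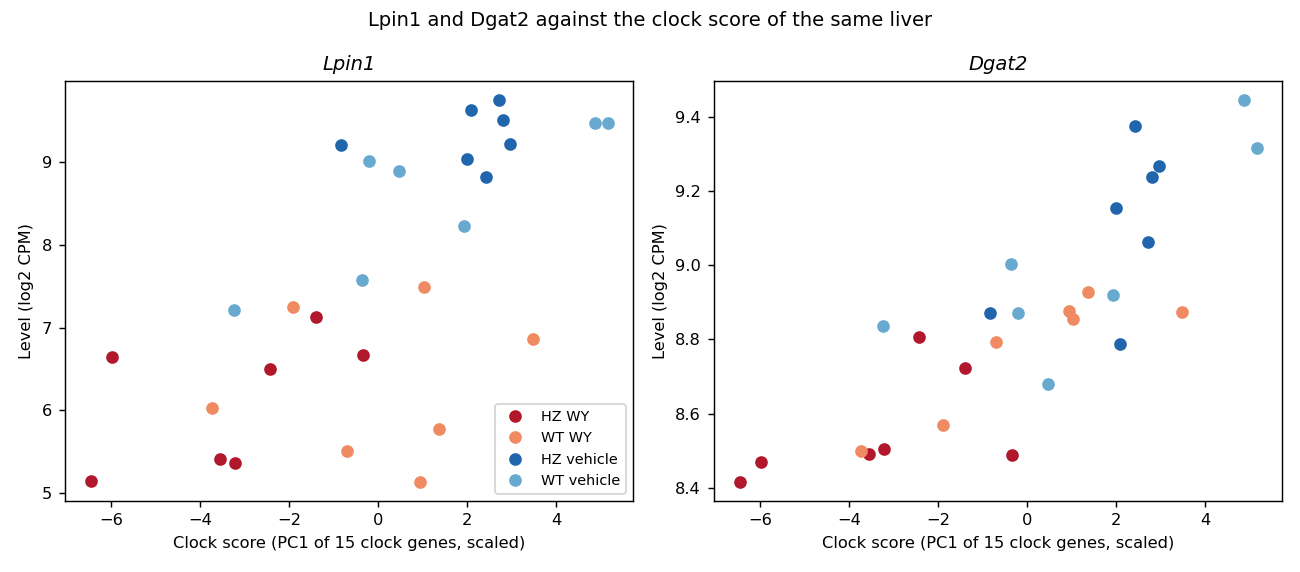
Points are livers, with the clock score (horizontal axis, scaled) against log2 CPM of Lpin1 on the left and Dgat2 on the right, coloured by HZ WY, WT WY, HZ vehicle and WT vehicle. In Lpin1 the WY livers lie between 5.14 and 7.49 log2 CPM across the whole span of their clock scores, and in Dgat2 the HZ WY livers, with clock scores from -6.46 to -0.34, overlap livers of the other groups on both axes.

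Within groups, members varied together in sets. Deviations of log2 CPM from the group means over the 28 livers gave a Pearson correlation of 0.84 between Gpd1 and Agpat2, 0.82 between Gpd1 and Mogat1, 0.75 between Agpat2 and Mogat1 and 0.70 between Gpam and Mogat1. Lpin1 ran opposite to Gpd1 (-0.58) and with Lpin2 (0.58), and Dgat1 and Dgat2 were at -0.22. The genes closest to each member differed in kind. For Lpin1 these were Pck1 (0.87), the gluconeogenic enzyme PEPCK, the clock gene Per1 (0.85) and Pptc7 (0.85), a mitochondrial phosphatase. In HZ vehicle livers alone Lpin1 was at 0.22 with Pck1 and 0.05 with Per1, and other pairs named here were also lower in single groups of 7, such as 0.43 for Gpam with Lpcat3 in HZ WY, 0.52 for Mogat1 with Etfdh and 0.42 for Dgat2 with Hdac11 in WT WY, and 0.21 for Lpin3 with Ccdc51 in WT vehicle livers. For Gpam they were Lpcat3 (0.88), a lysophospholipid acyltransferase, Fasn (0.88), the fatty acid synthase, and Gramd3 (0.86). For Mogat1 they were Etfdh (0.89), an enzyme that passes electrons from fatty acid oxidation to the respiratory chain, Apmap (0.89) and the acyl-CoA thioesterase Acot1 (0.88). Gpd1 was closest to Fam195a (0.91), Retsat (0.89), which reduces retinol, and Def8 (0.89). For Agpat2 they were Uck1 (0.90), a uridine kinase, the adiponectin receptor Adipor2 (0.86) and Ormdl3 (0.85), a regulator of sphingolipid synthesis. Agpat3 was closest to B3gat3 (0.86), Arl4a (0.83) and Rnf10 (0.83), and Lpin2 to Slc25a32 (0.85), Dclre1b (0.80) and Bmp2 (0.78). Lower values were found for Dgat2 with Hdac11 (0.82), Rpa1 (0.79) and Ldlrad3 (0.78), for Dgat1 with Eif4h (0.77), the fatty acid transporter Slc27a4 (0.74) and Dctn2 (0.73), and for Lpin3 with Ubox5 (0.74), Srf (0.71) and Ccdc51 (0.66). All values of a liver share its library and depth, and these correlations are descriptions.

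Some other genes of triglyceride synthesis were higher with WY, among them acyltransferases of the first step, and others, such as Gpd1l, were lower. Of 18 tested genes, 9 were higher and 4 lower in HZ livers, beside 29.3% and 26.4% of all tested genes. In WT livers 7 were higher and 2 lower, beside 27.4% and 26.7%. The median log2 fold change was 0.20 in HZ and 0.15 in WT livers. Agpat6 (now Gpat4), a glycerol 3-phosphate acyltransferase of the endoplasmic reticulum, averaged 345 ± 32.4 CPM in HZ WY and 177 ± 21.9 CPM in HZ vehicle livers (0.96 ± 0.08, adjusted p = 1.8e-10). In WT livers Agpat6 averaged 426 ± 30.3 CPM with WY and 230 ± 30.0 CPM with vehicle (0.89 ± 0.08, adjusted p = 7.5e-10). Its relative Agpat9 (now Gpat3) rose by 1.20 ± 0.14 in HZ (adjusted p = 4.1e-08) and 0.81 ± 0.14 in WT livers (adjusted p = 1.5e-05). Gpd2, the mitochondrial enzyme that oxidizes glycerol 3-phosphate, averaged 172 ± 27.4 CPM in HZ WY and 60.4 ± 14.1 CPM in HZ vehicle livers (1.51 ± 0.17, adjusted p = 4.6e-08), and its log2 fold change in WT livers was 0.84 ± 0.17 (adjusted p = 1.7e-04). Gpd1l, a cytosolic relative of Gpd1, fell by 0.69 ± 0.10 in HZ (adjusted p = 2.0e-06) and by 0.48 ± 0.10 in WT livers (adjusted p = 2.6e-04), where Gpd1 itself rose. Agpat1, which acts at the same step as Agpat2, rose by 0.51 ± 0.09 in HZ (adjusted p = 3.4e-05) and 0.72 ± 0.09 in WT livers (adjusted p = 2.9e-07). Ctdnep1, a phosphatase that removes phosphate from lipins, rose by 0.31 ± 0.06 in HZ (adjusted p = 8.1e-05) and 0.36 ± 0.06 in WT livers (adjusted p = 1.5e-05). The interaction passed for 0 of the 18 genes.

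Between the genotypes 3 of these 18 genes were lower in HZ vehicle livers, beside 1.77% of all tested genes, and the calls of these 3 depended on the libraries used. Agpat6 was at -0.37 ± 0.08 (adjusted p = 0.0183), Gpd2 at -0.74 ± 0.17 (adjusted p = 0.0281) and Agpat9 at -0.54 ± 0.14 (adjusted p = 0.0383). Without the 5 HZ libraries apart none of the 3 passed, at -0.36 (adjusted p = 0.132) for Agpat6, -0.65 (adjusted p = 0.199) for Gpd2 and -0.52 (adjusted p = 0.208) for Agpat9. None passed with vehicle animals 29 to 39 only (adjusted p = 0.119, 0.222 and 0.113 in the same order) or with only the vehicle groups fitted (adjusted p = 0.173, 0.184 and 0.191). The call of Agpat6 was also lost without WT animal 74 or 76, that of Gpd2 without HZ animal 30, 35 or 38 or WT animal 29, 74, 76 or 78, and that of Agpat9 without any HZ vehicle animal but 71 or any WT vehicle animal but 31 and 37. Agpat6 was also lower in HZ WY livers, at -0.31 ± 0.08 (adjusted p = 0.0367). That call did not hold without the 5 libraries (-0.40, adjusted p = 0.0570), nor without any one of HZ WY animals 5, 15, 17, 18 and 21 or WT WY animals 11, 19, 20, 24 and 25, with an adjusted p of at most 0.0834.

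Of 18 tested genes of the phospholipid branch, 7 were higher and 2 lower with WY in HZ livers and 6 higher and 2 lower in WT livers. Beside the all-gene shares of 29.3% and 26.4% in HZ and 27.4% and 26.7% in WT livers, the higher counts were near the background and the lower counts below it. Among them Ptdss2, a phosphatidylserine synthase, rose by 0.73 ± 0.07 in HZ (adjusted p = 2.1e-09) and 0.72 ± 0.07 in WT livers (adjusted p = 3.0e-09). Pgs1, which commits lipid to cardiolipin, rose by 0.98 ± 0.11 in HZ (adjusted p = 1.5e-08) and 0.86 ± 0.11 in WT livers (adjusted p = 1.6e-07). Pisd, the mitochondrial phosphatidylserine decarboxylase, and Cdipt, which makes phosphatidylinositol, rose in both genotypes as well. Ptpmt1, a phosphatase of the cardiolipin pathway, was the only gene of this branch that differed between genotypes, at -0.23 ± 0.06 in HZ WY livers (adjusted p = 0.0327), and none passed under vehicle. The Ptpmt1 call was lost without the 5 libraries (-0.20, adjusted p = 0.166) and without any one of HZ WY animals 5, 15 and 21 or WT WY animals 6, 10, 11, 19 and 24 (adjusted p of at most 0.0862).

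**Figure D5:**
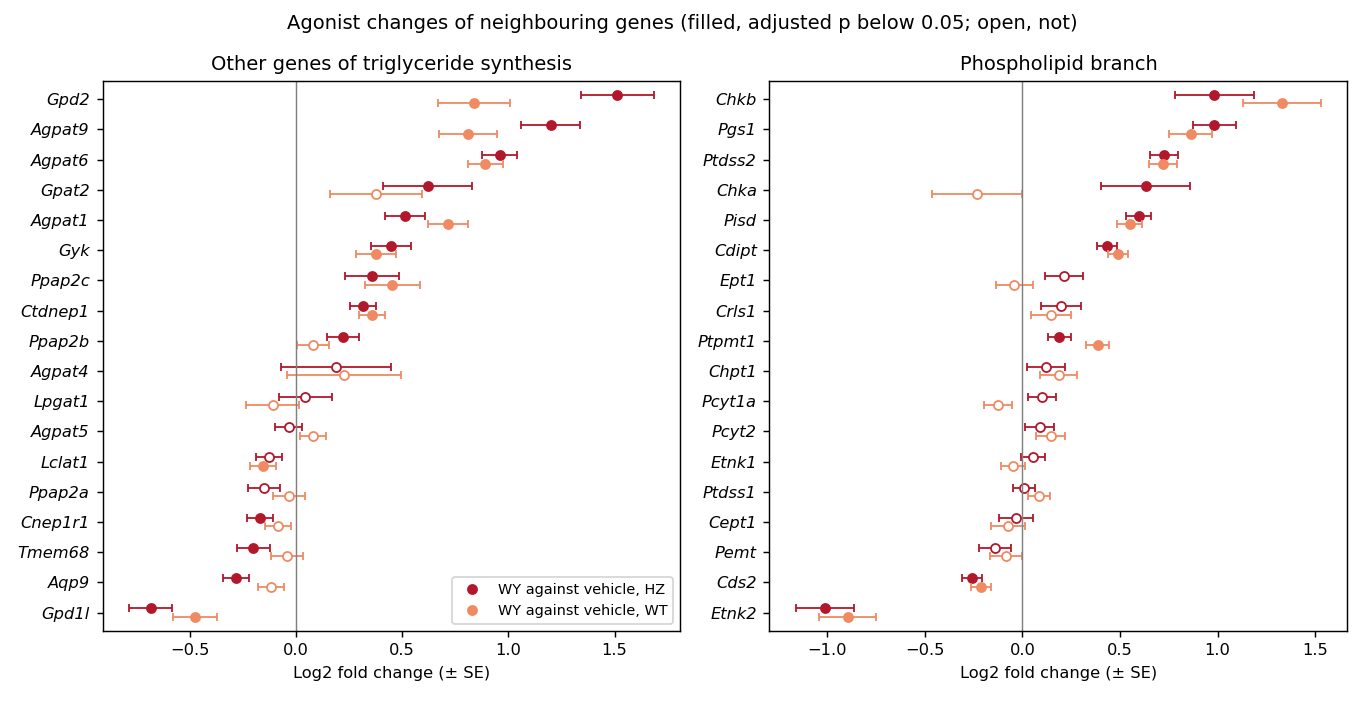
Points are fitted log2 fold changes of WY against vehicle in HZ and WT livers (horizontal axis, ± SE) for 18 other genes of triglyceride synthesis on the left and 18 of the phospholipid branch on the right, each ordered by the value in HZ livers; filled points passed an adjusted p of 0.05. Gpd2, Agpat9 and Agpat6 head the left panel and Gpd1l ends it in both genotypes.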

How the data were processed

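RNA was sequenced from 28 livers, 1 library per animal, 7 per group. Per the submitters' processing notes the tools were STAR 2.5.0a, HTSeq 0.6.1p1 and DESeq2 1.18.1 on mm10. The gene annotation and strandedness were not given in the sources used here. The authors deposited raw read counts per gene symbol, without normalization, in a vehicle and a WY table. Rows that name no gene held 35.8 to 42.6% (not placed uniquely), 6.35 to 9.08% (no feature) and 0.413 to 0.511% (ambiguous) of the reads in a library and were left out, with 0.147 to 0.246% in symbols turned into dates. The tables were joined by symbol.

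Counts were analysed in R 4.3.3. Genes were kept by filterByExpr (12607), scaled by TMM and fitted over all 28 libraries by robust quasi-likelihood in edgeR 4.0.16 (24 residual degrees of freedom) and a mean per group. Benjamini-Hochberg adjustment ran over all genes tested in a comparison, with a threshold of 0.05. The SE of a log2 fold change is its size divided by the square root of F. CPM uses TMM-scaled totals, and log2 CPM a prior count of 2. Counts limit precision in low genes. A p-value of the fit sets a difference between groups against a spread between animals. That spread was estimated over all 28 libraries, with information shared across genes. Lengths and positions are from GENCODE M21. Tests were checked on simulated counts with 200 changed genes.

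The members and lists were chosen with earlier results of these data known. All 10 genes were tested in every comparison. Values of all 10 are printed for WY against vehicle, but only of some for the genotype comparisons and the interaction. From the pathway lists up to 4 passing genes with the smallest p are named, and Pearson correlation of deviations from group means gave the 3 most alike genes of at least 5 CPM. Animal numbers are not shared between groups, so there is no pairing. Alternatives were DESeq2 1.42.0, its size factors, limma 3.58.1 with voom quality weights, other filters, fits of fewer libraries, covariates, a length trend and each library left out. No columns were left without a sample.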

Additional observations from a re-analysis of the deposited data

Results flagged for a closer look

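In HZ vehicle livers, Gpam of animal 71 was at 524.9 CPM, far from the other 6 animals, of which the next was at 290.1 CPM and the lowest at 177.3 CPM. In WT vehicle livers, Lpin3 of animal 76 was at 4.204 CPM, below the other 6 animals, of which the next was at 4.989 CPM and the highest at 5.472 CPM. Each gap was larger than Dixon's 95% limit for 7 values. The 10 genes gave 40 such groups, and chance flags about 1 in 20 groups.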

How the results depend on the processing

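The calls of Gpd1, Agpat2, Agpat3, Lpin1, Mogat1 and Dgat1 with WY held in both genotypes under every alternative run, and no alternative called an interaction for a member. The number of members lower in HZ vehicle livers, 1, was 0 with only the groups compared, without the 5 libraries apart, with vehicle animals 29 to 39 only and with a term for animals 71 to 78, 2 with limma and with DESeq2 (Gpd1 added), and 0 to 4 with a library left out. The number lower with WY in WT livers, 2, was 1 with no filter, with only the groups compared, with the clock score and with limma, and 1 to 2 with a library left out. It was 1 in HZ livers with the clock score, and under that setting 1 member was lower in HZ WY livers (Agpat3, -0.19, adjusted p = 0.0471). Signs turned among log2 fold changes that did not pass. Not all of these were near 0 in the main fit. In HZ against WT under WY the main values were -0.24 for Lpin1 and -0.22 for Dgat2. For Lpin2 with WY in WT livers the main value was -0.23. Lpin2 in HZ against WT vehicle was 0.0101 with animals 29 to 39. In HZ against WT under WY, Lpin1 was 0.21 and Dgat2 0.00842 with the clock score, and Mogat1 was 0.00275 without the 5 libraries and 0.0613 with the length trend removed. In WT livers, WY gave 0.0404 (animals 29 to 39), 0.19 (term for 71 to 78) and 0.0648 (length trend) for Gpam, 0.00844 (length trend) for Lpin2 and 0.00162 (limma) for Lpin3. The Lpin2 interaction was 0.13 with the clock score. With a library left out, values ran from -0.0713 to 0.0186 for Gpd1, -0.44 to 0.00608 for Lpin1 and -0.0924 to 0.0754 for Mogat1 in HZ against WT under WY, -0.12 to 0.12 for Gpam and -0.0724 to 0.0542 for Lpin3 with WY in WT livers, and -0.19 to 0.0186 for the Lpin2 interaction. The causes were not tested. Over all genes, those lower in HZ vehicle livers numbered 223, against 0 with only the groups compared, without the 5 libraries or with animals 29 to 39, 67 with the number term, 135 with no filter, 400 with DESeq2, 522 with limma and 40 (without HZ animal 38) to 505 (without HZ animal 71) with a library left out. The 38 higher there numbered 0 under the first 3 of these, 2 with the number term, 11 with no filter, 121 with DESeq2, 179 with limma and 1 to 145 with a library left out. Those lower in HZ WY livers numbered 219, against 20 without the 5 libraries, 70 with no filter, 480 with DESeq2 size factors, 522 with the clock score, 557 with limma, 725 with DESeq2 and 38 (without WT animal 19) to 535 (without HZ animal 2) with a library left out. The 179 higher numbered 28 without the 5 libraries, 83 with no filter, 94 with the length trend removed, 377 with limma, 398 with DESeq2, 479 with the clock score and 36 to 442 with a library left out. No paired analysis was possible because no animal number is shared between groups. Depth limits Lpin3, Sirt6 and, under vehicle, Mogat1.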
